A study of Mus musculus with 38 samples.

Results

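The laminins and integrins were followed as a family through 10 groups of 38 kidney RNA-Seq libraries. Every gene of the count table whose symbol is that of a laminin chain (Lama, Lamb or Lamc and a number) or of an integrin α or β subunit (Itga or Itgb) was taken, which gave 37 of 55487 genes: 11 laminin chains, 18 integrin α subunits and 8 integrin β subunits. The anti-GBM experiment used male C57BL/6JRj mice, in which disease was started at 8 weeks of age by immunization with sheep IgG in Freund's adjuvant and, 4 days later, a nephrotoxic serum against the glomerular basement membrane. Its healthy mice numbered 4 with vehicle and 3 with FGF23, and its anti-GBM mice likewise 4 and 3. These are the sizes in the labels, and the text of the study gives others. FGF23 was the recombinant human protein, 1 µg in each of 6 intravenous injections, with kidneys taken at 10 weeks of age, 24 h after the last. The Adriamycin experiment used female BALB/c mice, in which 1 dose of the podocyte toxin Adriamycin induces a proteinuric nephropathy, given at 8 weeks of age with kidneys taken at 10 weeks, with 4 mice in each of the 4 groups (healthy or Adriamycin, each given vehicle or 1 injection of FGF23 24 h before kidneys were taken). The third experiment used precision-cut kidney slices (PCKS) of male DBA/2J mice with adenine nephropathy (0.2% adenine in the diet for 15 weeks, 23 weeks old at the end), with 4 cultures given vehicle and 4 given FGF23. The labels give 1 h of treatment for the slices, whereas the text of the study gives 24 h, and no slices of healthy kidneys were made. Total counts per library ran from 13704248 to 23630210 in the anti-GBM experiment, from 15665050 to 27583911 in the Adriamycin experiment and from 11186925 to 16254987 in PCKS.

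Laminins are heterotrimers of an α, a β and a γ chain that polymerise into the sheet on which a basement membrane is built. The mature glomerular basement membrane carries the laminin made of α5, β2 and γ1 (Lama5, Lamb2, Lamc1), Lama3 and Lamb3 belong to a laminin that anchors epithelia, and α2 (Lama2), best known from muscle, is found in the mesangial matrix. Integrins are α/β heterodimers that tie cells to such matrices: α3β1 and α6 dimers bind laminin, α1, α2, α10 and α11 bind collagen, α5, α8 and αv bind ligands with the RGD peptide, and the β2 and β7 dimers are carried by leukocytes. The anti-GBM antibodies of this model bind the very membrane that these chains form.

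Promoter sequence is shown for 5 genes on which the results turn: Itgam and Itgax, the α subunits of neighbouring genes that had some of the larger rises in anti-GBM kidneys, Lama5 and Lamb2 of the glomerular laminin, and Lama2, the 1 gene called with FGF23, in anti-GBM mice and near the threshold. RefSeq promoter windows (GRCm38.p6) were in hand for 23 of the 37 genes, and the 250 bases before the start are printed for Itgam (chr7:128062390-128062639, plus strand), Itgax (chr7:128129300-128129549, plus strand), Lama5 (chr2:180225860-180226109, minus strand), Lamb2 (chr9:108479612-108479861, plus strand) and Lama2 (chr10:27616943-27617192, minus strand), each 5′ to 3′ on the strand of its gene. Capitals mark 3 motifs searched on either strand: GAGGAA, a core bound by the myeloid factor PU.1 and its relatives, TGANTCA, the AP-1 site, and GGGCGG, the GC box of Sp1.
Itgam: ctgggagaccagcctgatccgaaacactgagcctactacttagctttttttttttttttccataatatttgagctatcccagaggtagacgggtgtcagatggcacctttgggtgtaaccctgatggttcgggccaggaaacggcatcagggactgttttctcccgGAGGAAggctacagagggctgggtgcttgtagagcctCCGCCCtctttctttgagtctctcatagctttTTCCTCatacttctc
Itgax: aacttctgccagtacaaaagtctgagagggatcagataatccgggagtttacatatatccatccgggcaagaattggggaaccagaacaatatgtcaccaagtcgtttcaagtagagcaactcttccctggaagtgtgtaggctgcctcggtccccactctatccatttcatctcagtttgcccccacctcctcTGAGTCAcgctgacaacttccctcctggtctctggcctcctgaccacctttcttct
Lama5: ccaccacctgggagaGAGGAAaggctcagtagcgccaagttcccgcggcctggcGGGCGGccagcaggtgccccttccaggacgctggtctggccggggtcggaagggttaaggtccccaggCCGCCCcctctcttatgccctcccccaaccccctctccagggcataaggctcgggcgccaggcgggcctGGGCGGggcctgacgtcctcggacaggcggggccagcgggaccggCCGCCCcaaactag
Lamb2: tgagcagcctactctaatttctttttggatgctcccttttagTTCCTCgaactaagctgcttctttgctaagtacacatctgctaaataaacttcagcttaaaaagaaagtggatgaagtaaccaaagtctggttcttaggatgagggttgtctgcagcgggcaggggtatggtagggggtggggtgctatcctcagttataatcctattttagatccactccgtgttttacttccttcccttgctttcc
Lama2: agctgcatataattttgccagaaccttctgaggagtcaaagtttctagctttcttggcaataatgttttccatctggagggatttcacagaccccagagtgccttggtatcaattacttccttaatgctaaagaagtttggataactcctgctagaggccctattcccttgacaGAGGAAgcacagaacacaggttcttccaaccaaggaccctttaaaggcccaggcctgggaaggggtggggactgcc
Itgam held GAGGAA 84 to 79 bases before its start, and again on the other strand 15 to 10 bases before it, with a GC box between. Itgax, whose gene begins 11055 bases past the end of Itgam, had neither and carried the only AP-1 site among the windows of the family, 56 to 50 bases before its start. Lama5 had 4 GC boxes and 1 GAGGAA, and Lamb2 and Lama2 had 1 GAGGAA each and no GC box. GAGGAA was in 23.3% of the 32851 windows of all genes and in 13 of the 26 windows of the family, the GC box in 32.7% and 9, and TGANTCA in 6.75% and 1. These are matches of letters and were not set against binding. The windows follow RefSeq starts, which for 2 genes lie downstream of the start in the annotation used for gene coordinates. There Lama2 begins at chr10:27619758, so that its printed bases lie inside the gene. Lamb2 begins there at chr9:108479736, within its printed bases.

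Of the 37 genes, all but Itgad had counts in every library. Itgad, the αD subunit of some macrophages, had at most 2 counts, was at 0 in 27 of 38 libraries and is below what a count of 3 could show. Counts scaled to library size (CPM) were scaled with TMM over all libraries, and levels were compared between genes only as CPM per kilobase of exon. On that scale Itgb1, the β1 subunit shared by most matrix-binding integrins, was highest in healthy C57BL/6 mice given vehicle (83.0), followed by Itgb5 (39.5), Itgb8 (21.9), Lamb1 (16.8) and Itgav (16.5). Itgb1, Itgb5, Itgb8, Lamb1 and Itgav took the same first places in healthy BALB/c mice given vehicle, with 69.9, 35.3, 25.1, 21.6 and 16.5. In healthy C57BL/6 mice given FGF23, Itgb6 (15.3) stood before Itgav (13.5). The slices given vehicle had another order, with Itgb1 (237), Itga3 (60.2), Lama5 (57.9) and Itgav (48.6) first.

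**Figure D1:**
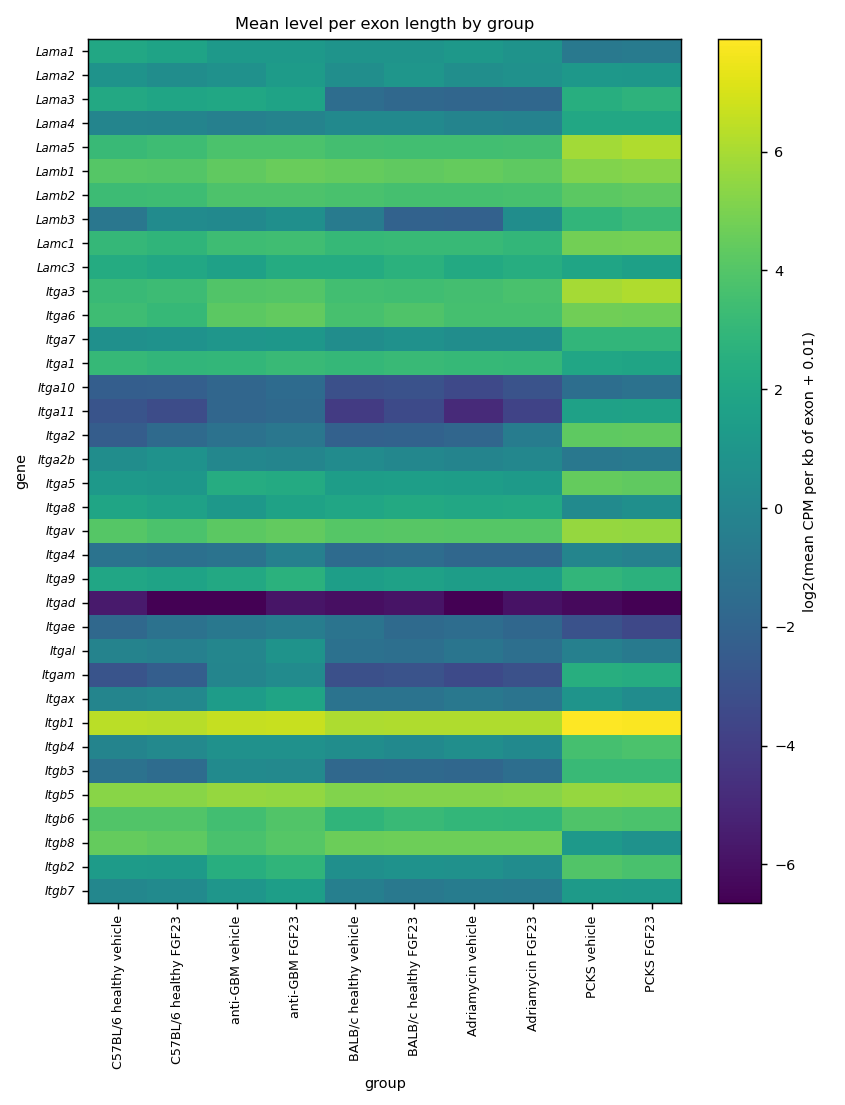
Mean level of 36 of the 37 genes (rows, ordered by role) in the 10 groups (columns), as log2 of CPM per kilobase of exon plus 0.01. Itgb1 is the brightest row in every group, Lama3 is dark in the 4 BALB/c groups, and Itga2, Itga11, Itgam and Itgb3 are brighter in the slices than in any kidney.

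Anti-GBM disease moved most of the family. Against healthy mice given vehicle, 24 of the 36 genes tested passed an adjusted p below 0.05 by edgeR's quasi-likelihood test (19 higher, 5 lower), against a background of 39.8% of the 15859 genes tested (19.4% higher, 20.4% lower). The median log2 fold change over the 36 genes was 0.33 and that over all genes was -0.01. In 21 of the 36 genes the 4 anti-GBM kidneys did not overlap the 4 healthy ones, where 37% of genes of at least 1 CPM did so. Here as in the other bulk samples, more cells of a type and more RNA per cell cannot be told apart. Nothing in the labels pairs or pools the mice, and the p-values measure the spread between them.

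The 3 chains of the glomerular laminin rose together and moderately. The RNA was from bulk kidney tissue, in which glomeruli and other parts cannot be told apart. Lama5 was at 98.3, 95, 104 and 120 CPM in healthy mice and 180, 130, 180 and 139 CPM in anti-GBM mice (log2 fold change 0.60 ± 0.15 SE, edgeR adjusted p = 0.00582). Lamb2 went from 66.6, 52.8, 64.0 and 62.7 CPM to 87.1, 78.7, 87.1 and 94.7 CPM (0.50 ± 0.10, adjusted p = 0.00143). Lamc1 went from 61.6, 71.1, 65.7 and 73.5 CPM to 81.8, 80.0, 99.0 and 75.2 CPM (0.31 ± 0.09, adjusted p = 0.0158). For each of these chains the lowest diseased kidney stood above the highest healthy one. Of the markers of podocytes, which make much of this laminin, 0 of 3 (Nphs1, Podxl, Synpo) passed the test. Their summed level was 403 to 549 CPM in healthy and 435 to 501 CPM in anti-GBM mice given vehicle. The part of podocytes and of other cells in the rise of these chains was not tested. Lamb1, the β chain that precedes Lamb2 in development and stays in other membranes, was at 169, 172, 149 and 175 CPM and then 161, 219, 204 and 208 CPM, with overlap and an adjusted p of 0.0537 (0.26 ± 0.10).

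Of the epithelial chains, Lamb3 rose and Lama3 did not pass the test. Lamb3 averaged 3.52 ± 0.491 CPM in healthy and 7.70 ± 2.92 CPM in anti-GBM mice (SD, n = 4 each), with an adjusted p of 0.0484. That call held in 7 of 14 fits without 1 mouse, with log2 fold changes from 0.93 to 1.35, and was lost in a robust fit. Lama3 was at 47.1 ± 6.92 and 42.5 ± 12.3 CPM (-0.14, 95% interval -0.51 to 0.23). Markers of injured tubules rose in the same kidneys: all 4 (Havcr1, Lcn2, Krt20, Sox9) passed, with sums of 2.61 to 5.22 CPM in healthy and 232 to 672 CPM in diseased mice. Of the collecting duct markers, Hsd11b2 and Scnn1g passed, both higher, and Aqp2 and Fxyd4 did not. Their sums were 314 to 407 CPM in healthy and 444 to 685 CPM in diseased mice. The part of either cell type in the laminin changes was not tested.

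Lama1 and Lamc3 moved the other way. Lama1, an α chain of embryonic and tubular basement membranes, was at 34.7, 41.6, 42.3 and 46.8 CPM in healthy and 28, 20.4, 24.9 and 15.7 CPM in anti-GBM mice (-0.89 ± 0.16, adjusted p = 0.000708). Lamc3, the γ3 chain, was at 34.2, 29.5, 28.6 and 26.1 CPM and then 20.2, 21, 16.1 and 21.6 CPM (-0.58 ± 0.11, adjusted p = 0.0011). Neither pair of groups overlapped. Lama2 and Lama4, the α chains of mesangial and vascular matrices, had log2 fold changes of -0.10 (interval -0.33 to 0.13) and -0.23 (-0.53 to 0.07).

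**Figure D2:**
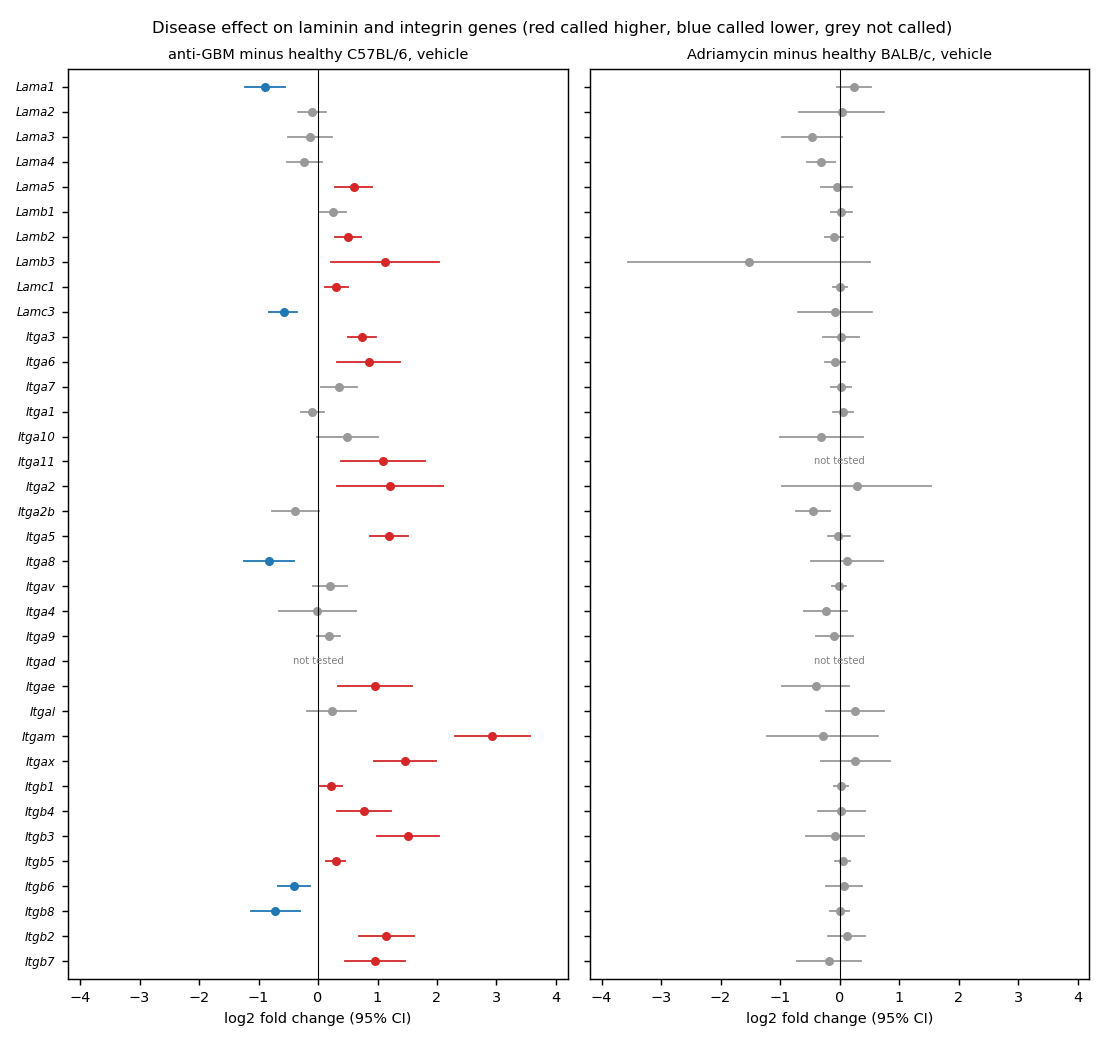
Log2 fold change with its 95% interval for 36 laminin and integrin genes, for anti-GBM against healthy C57BL/6 kidneys (left) and Adriamycin against healthy BALB/c kidneys (right), all given vehicle. In anti-GBM disease most genes shown were called, more of them higher (red) than lower (blue), and with Adriamycin none was called; genes marked "not tested" had too few counts.

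Of the 3 laminin-binding α subunits, Itga3 and Itga6 rose in anti-GBM kidneys and Itga7 did not pass. Itga3, whose dimer with β1 is the main laminin receptor of podocytes, went from 50.2, 47.3, 53.4 and 56.5 CPM to 74.2, 83.4, 96.5 and 91.2 CPM (0.74 ± 0.11, adjusted p = 0.000229). Itga6 went from 73.7, 111, 93.4 and 102 CPM to 127, 123, 256 and 175 CPM (0.85 ± 0.25, adjusted p = 0.0144). The mouse at 256 CPM weighed on the latter: without it the log2 fold change of Itga6 was 0.59 with an adjusted p of 0.0505. Itgb4, the partner of α6 in hemidesmosomes, rose from 6.59 ± 1.23 to 11.2 ± 1.56 CPM (0.77 ± 0.21, adjusted p = 0.0107). Itgb1 itself moved little, from 337, 353, 343 and 321 CPM to 359, 396, 456 and 367 CPM (0.22 ± 0.08, adjusted p = 0.0457), and this call was lost in 6 of 14 fits without 1 mouse and in 2 of 6 other settings. Itga7, the α subunit of muscle, had a log2 fold change of 0.35 and an adjusted p of 0.0572.

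The receptors for collagen and for fibronectin split. Itga5, the fibronectin receptor, rose 2.29-fold from 11.5, 10.5, 11.8 and 11.1 CPM to 22.6, 21.3, 32.4 and 26.4 CPM (1.20 ± 0.15, adjusted p = 5.29e-05). Itga1, the abundant collagen receptor of mesangium and vessels, stayed within its spread, at 150, 157, 150 and 174 CPM and then 138, 147, 176 and 128 CPM (-0.10, interval -0.29 to 0.10). The scarcer collagen receptors Itga2 and Itga11 rose to 3.12 ± 1.23 CPM from 1.34 ± 0.274 CPM (adjusted p = 0.0321) and to 1.37 ± 0.487 CPM from 0.651 ± 0.22 CPM (adjusted p = 0.0171). Both calls were lost without the mouse that was highest in Itga6. Itga2 kept its call in 10 of 14 fits without 1 mouse and Itga11 in 13, with a highest adjusted p of 0.111 and 0.0502. Itga8, the RGD-binding subunit of mesangial cells, fell from 27.9 ± 1.80 CPM to 15.7 ± 1.64 CPM (-0.82 ± 0.19, adjusted p = 0.00456), while the mesangial and pericyte marker list had 2 of 4 members higher (Pdgfrb, Cspg4) and none lower.

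Among the β subunits that pair with αv, some rose and some fell. Itgb3 rose 2.86-fold, from 1.37, 3.25, 2.71 and 2.86 CPM to 5.81, 6.54, 10.5 and 6.28 CPM (1.52 ± 0.24, adjusted p = 0.000346). Itgb5 rose from 140 ± 7.07 to 172 ± 11.5 CPM (0.30 ± 0.08, adjusted p = 0.00682). Itgb8 and Itgb6, whose dimers release active TGF-β from its latent form, fell, Itgb8 from 242 ± 41.7 to 147 ± 43.1 CPM (-0.72 ± 0.19, adjusted p = 0.00906) and Itgb6 from 107 ± 11.3 to 80.9 ± 9.71 CPM (-0.40 ± 0.13, adjusted p = 0.0231). A single anti-GBM mouse had 83.6 CPM of Itgb8, and the call held in all 14 fits without 1 mouse (-0.83 to -0.48). Itgb6 lost its call in 6 of 14 such fits. Itgav, the common partner, was at 178 ± 18.6 and 203 ± 36.7 CPM (0.20, interval -0.09 to 0.49), and Itga2b, which pairs with β3 on platelets, at 7.44 ± 1.32 and 5.72 ± 1.28 CPM (-0.38, interval -0.78 to 0.02).

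The leukocyte integrins held the largest rise of the family. Of 7 tested (Itgad was not), 5 passed and all of these were higher, beside 39.8% of all genes called and 19.4% higher. Itgam, which with Itgb2 forms complement receptor 3 of neutrophils and macrophages, was at 0.497, 0.567, 0.923 and 0.572 CPM in healthy mice and at 5.20, 6.12, 4.31 and 4.19 CPM in anti-GBM mice (7.64-fold, 2.93 ± 0.30, adjusted p = 1.07e-05). Its raw counts were low, at 8 to 17 in healthy and 54 to 94 in anti-GBM mice. Itgb2 went from 5.90, 7.22, 8.36 and 9.14 CPM to 20.3, 19.8, 16.7 and 10.8 CPM (1.15 ± 0.21, adjusted p = 0.000962). Itgax, of dendritic cells and some macrophages, went from 3.41, 5.21, 4.99 and 4.86 CPM to 15.4, 15.2, 12.8 and 7.29 CPM (1.46 ± 0.24, adjusted p = 0.000424). In Itgam, Itgb2 and Itgax alike, every diseased kidney stood above every healthy one. Itgb7 and its partner Itgae, of intraepithelial lymphocytes and dendritic cells, rose from 2.30, 2.94, 3.37 and 2.86 CPM to 8.03, 6.33, 3.92 and 3.96 CPM (adjusted p = 0.00534) and from 1.33 ± 0.285 to 2.57 ± 1.18 CPM (adjusted p = 0.0186, kept in 12 of 14 fits without 1 mouse). Itgal, the α subunit of LFA-1, and Itga4, which binds VCAM-1, did not pass, with log2 fold changes of 0.23 (interval -0.19 to 0.64) and -0.01 (-0.66 to 0.63).

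Pan-leukocyte, neutrophil and macrophage markers were mostly higher in the same kidneys, and T and B cell markers were mostly not called. In this comparison 39.8% of all genes were called. All 4 pan-leukocyte markers (Ptprc, Cd52, Coro1a, Laptm5) passed, with sums of 47.3 to 59.0 CPM in healthy and 86.0 to 149 CPM in anti-GBM mice. Neutrophil markers passed in 4 of 4, with sums of 1.34 to 2.29 and 9.74 to 19.7 CPM, macrophage markers in 3 of 4, with 80.4 to 111 and 159 to 255 CPM, T cell markers in 1 of 4, with 2.86 to 4.56 and 3.10 to 6.09 CPM, and for B cells 1 of 3 tested was lower. None of these defining markers was at 0 in either group. How far cell number accounts for the integrin changes was not tested.

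Anti-GBM disease under FGF23 gave a like count with a partly different list. There 23 of 36 genes passed (21 higher, 2 lower, against 27.2% of all genes, with 14.5% higher and 12.7% lower), with a median log2 fold change of 0.61. In 27 genes the 2 groups did not overlap, where 46.8% of genes of at least 1 CPM did so. The genes called higher in each treatment arm numbered 13, among them Lamc1, Lamb2, Itga3, Itga6, Itgb1, Itga5, Itga11, Itgb3, Itgam, Itgax, Itgb2 and Itgb7. Lama1 was the 1 gene called lower in each (under FGF23 38.4, 31.1 and 29.3 CPM in healthy and 22.9, 24.3 and 18.7 CPM in diseased mice, -0.58 ± 0.18, adjusted p = 0.0292, lost in 3 of 14 fits without 1 mouse), and no gene was called in opposite directions. Another 10 were called only under vehicle (Lama5, Lamb3, Lamc3, Itga2, Itga8, Itgae, Itgb4, Itgb5, Itgb6 and Itgb8) and 9 only under FGF23, which by itself is no test of a difference. Under FGF23 the log2 fold change of Lama5 was 0.43 (118 ± 18.9 and 158 ± 35.3 CPM in healthy and diseased mice, adjusted p = 0.0719). Those of Lamc3 (0.26, 25.3 ± 2.85 and 30.1 ± 2.34 CPM) and Itga8 (0.05, 23.9 ± 3.95 and 24.6 ± 10.7 CPM) were above 0, where the vehicle arm had them lower, and those of Itgb8 and Itgb6 were -0.24 and -0.02. The test of that difference, the interaction of FGF23 with disease, called 0 of the 36 genes (0.0315% of all genes), whereas DESeq2 called 3. In edgeR an unadjusted p below 0.05 was found for 7 of the 36 and for 1316 of all 15859 genes tested.

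Among the 9 genes called in diseased against healthy mice only under FGF23 were Itga9, Lama2, Lamb1 and the T cell and monocyte subunits Itgal and Itga4. Itga9, which binds tenascin-C and VCAM-1, was at 29.5, 26.2 and 25.0 CPM in healthy and 49.6, 45.6 and 46.9 CPM in anti-GBM mice given FGF23 (0.82 ± 0.10, adjusted p = 7.64e-05). Itgal was at 5.56, 3.79 and 5.99 CPM and 11.5, 13.1 and 9.60 CPM (1.17 ± 0.22, adjusted p = 0.00164), and Itga4 at 5.61 ± 1.73 and 10.9 ± 1.19 CPM (adjusted p = 0.0469, n = 3 each). Lamb1 was at 148, 162 and 169 CPM and 253, 202 and 239 CPM (0.54 ± 0.12, adjusted p = 0.00362). In each of these the 3 diseased kidneys lay above the 3 healthy ones. Itgav (0.64 ± 0.16, adjusted p = 0.00831), Itga1 (0.30 ± 0.10, adjusted p = 0.0437) and Itga10 (0.75 ± 0.26, adjusted p = 0.0469) completed the rises, and Itga2b was lower (-0.81 ± 0.21, adjusted p = 0.0119). Itga4, Itga1 and Itga10 each kept the call in 7 of 14 fits without 1 mouse, Itga2b in 12, and Itga10 in 2 of 6 other settings.

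The genes around the family were read from 3 lists. Of 20 laminin partners and other basement membrane genes, 10 were higher and 4 lower in anti-GBM mice given vehicle (70% called, beside 39.8% of all genes, median log2 fold change 0.42). Col18a1 (1.24 ± 0.10), Col4a2 (0.82 ± 0.09) and Col4a1 (0.96 ± 0.12) had the smallest p, with adjusted p of 2.55e-06, 3.09e-05 and 6.25e-05. Col4a1 and Col4a2 encode the ubiquitous collagen IV network. Col4a3 (-0.60 ± 0.11, adjusted p = 0.001) and Col4a4 (-0.46 ± 0.09, adjusted p = 0.00137), of the network particular to the mature glomerular membrane, fell, and are named after their values were seen. Of 26 integrin adaptors, 11 were higher and 3 lower (53.8% called, median 0.25), led by the focal adhesion genes Zyx (0.87 ± 0.09), Actn1 (1.48 ± 0.16) and, downward, Tln2 (-0.91 ± 0.12). Of 20 integrin ligands tested among 22, 17 were higher and 0 lower (85% called, median 1.61), led by Vcam1 (3.43 ± 0.23), Fn1 (1.91 ± 0.14) and Col1a2 (1.80 ± 0.14), the ligands of α4 and α9, of α5 and of the collagen receptors. Fibroblast markers, of which Col1a1 is also in the ligand list, passed in 4 of 4, with sums of 129 to 212 CPM in healthy and 417 to 560 CPM in diseased mice.

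Ratios within a library show how the makeup of the family differed between groups, as a description without a test. The log2 ratio of Lama1 to Lama5 ran from -1.5 to -1.19 in healthy C57BL/6 mice given vehicle and from -3.14 to -2.67 in their anti-GBM counterparts. Under FGF23 it ran from -2.09 to -1.32 and from -3.11 to -2.46. In BALB/c mice given vehicle it ran from -3.18 to -2.80 in healthy and from -2.78 to -2.54 in Adriamycin mice, without overlap. The BALB/c groups given FGF23 overlapped, at -3.04 to -2.62 and -3.02 to -2.89. The slices lay far below, from -7.42 to -6.26. Lamb1 to Lamb2 overlapped between healthy (1.22 to 1.70) and anti-GBM kidneys (0.89 to 1.47) of mice given vehicle, to which the next values also belong. Itgb6 to Itgb5 did not overlap, at -0.53 to -0.23 and -1.40 to -0.95, nor did Itgb3 to Itgb5 (-6.65 to -5.29 and -4.81 to -3.92). Under FGF23 Itgb6 to Itgb5 did overlap, at -0.79 to -0.04 and -0.89 to -0.36, and Itgb3 to Itgb5 did not, at -6.37 to -5.88 and -4.69 to -4.47. In the mice given vehicle, Itga6 to Itga3 overlapped, at 0.55 to 1.22 and 0.56 to 1.41. The log2 ratio of Itga1 to Itga2 ran from 6.39 to 7.20 in healthy C57BL/6 mice given vehicle and from -1.94 to -0.71 in the slices.

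**Figure D3:**
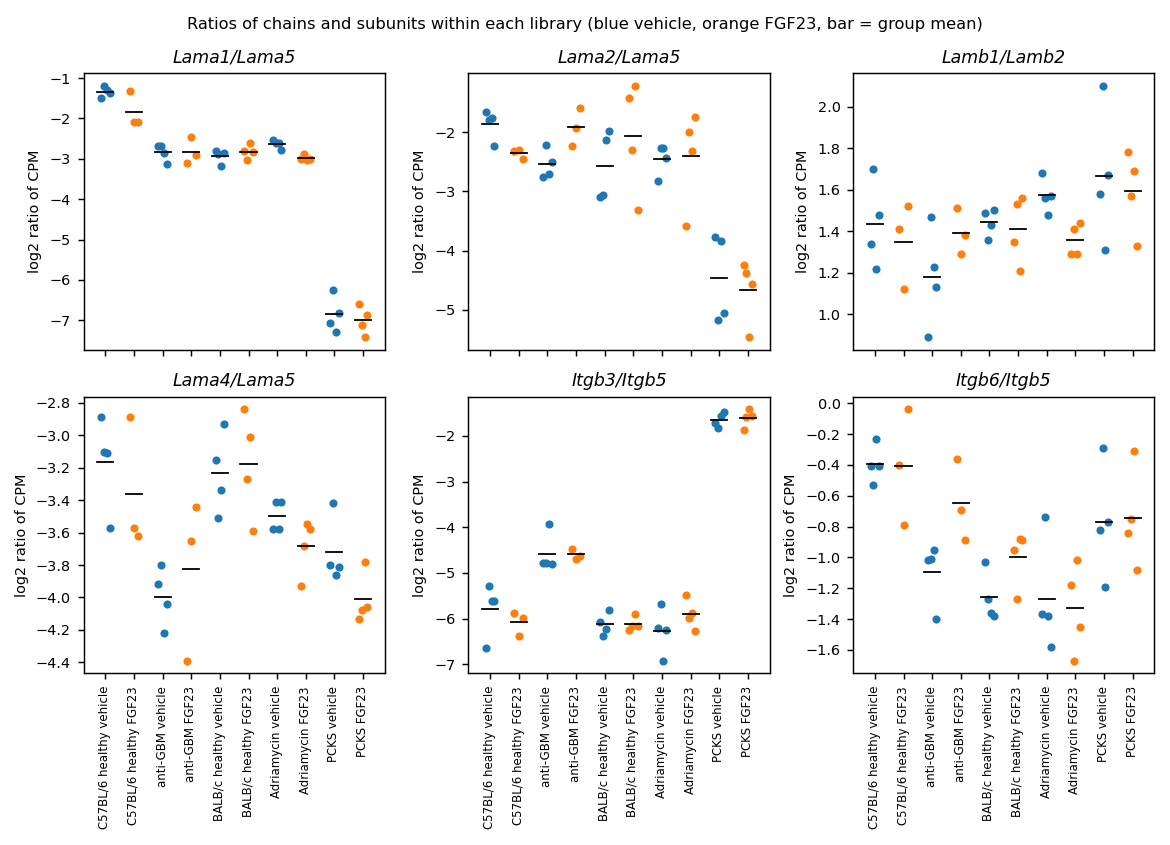
Log2 ratio of the CPM of 2 chains or subunits within each library (points, blue vehicle, orange FGF23), with the group mean as a bar. Lama1/Lama5 stands at -1.5 to -1.19 in healthy C57BL/6 mice given vehicle, at -3.14 to -2.67 in anti-GBM mice given vehicle, and at or below -6.26 in the slices.

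FGF23 against vehicle within anti-GBM mice was called for 1 gene of the 36, Lama2, where 0.24% of all genes were called (0.233% higher, 0.00631% lower). Lama2 was at 26.4, 27.9, 27.4 and 24.5 CPM under vehicle and at 42.3, 35 and 46.4 CPM under FGF23, with no overlap (0.62 ± 0.12, adjusted p = 0.0449). The call was near the threshold: it held in 3 of 14 fits without 1 mouse (log2 fold change 0.52 to 0.73), was lost when any 1 of the 8 vehicle-treated mice of the experiment was left out, and over all alternatives its adjusted p ran from 4.95e-04 to 0.204. The next genes were Itga9, at 32.9, 32.8, 38.2 and 31 CPM and then 49.6, 45.6 and 46.9 CPM (0.48 ± 0.09, adjusted p = 0.055), and Lamc3, at 20.2, 21, 16.1 and 21.6 CPM and then 30.5, 27.5 and 32.2 CPM (0.60 ± 0.12, adjusted p = 0.0568). Both sets were free of overlap. DESeq2 called all 3 of them and Itgal (0.76, adjusted p = 0.0423). In 7 of the 36 genes the groups did not overlap, all with FGF23 higher, against 9.3% of genes of at least 1 CPM. The RNA came from a fragment of each kidney. In healthy BALB/c mice given FGF23, Lama2 averaged 32.5 ± 13.5 CPM and Lamc3 38.2 ± 15.4 CPM (SD), with the mice in the same order for both. The SD of Lama2 ran from 4.79 to 13.5 CPM in the BALB/c groups and from 1.5 to 5.76 CPM in the C57BL/6 groups. Whether Lama2, Lamc3 and Itga9 moved independently of each other was not tested.

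In healthy C57BL/6 mice FGF23 called no gene. Lama2 was at 30.9, 27.2, 30.6 and 25.6 CPM under vehicle and 19.2, 26.4 and 22.7 CPM under FGF23 (-0.34 ± 0.12, adjusted p = 0.996), and 0 of 36 genes was called in a comparison in which edgeR called 0% of all genes and 689 had an unadjusted p below 0.05. DESeq2 called 0 of the 36 as well, 2 had an unadjusted p below 0.05, and 3 were free of overlap (7.15% of genes of at least 1 CPM). The interaction estimate was 0.96 ± 0.17 for Lama2 (adjusted p = 0.0684), 0.84 ± 0.17 for Lamc3 (adjusted p = 0.129) and 0.64 ± 0.13 for Itga9 (adjusted p = 0.162). DESeq2 gave adjusted p of 2.52e-04, 0.00367 and 0.0108 for these. Of the collagen-binding subunits, none was called in either FGF23 comparison, and Itga1 had an interaction of 0.40 ± 0.14 (adjusted p = 0.5). Among stromal marker lists in anti-GBM mice, mesangial and pericyte sums were 189 to 261 CPM under vehicle and 290 to 327 CPM under FGF23. Fibroblast sums were 417 to 560 and 588 to 762 CPM, with 0 of 4 called in each of these lists. Smooth muscle sums overlapped, at 182 to 257 CPM under vehicle and 214 to 227 CPM under FGF23. Pan-leukocyte sums were 86 to 149 CPM under vehicle and 154 to 175 CPM under FGF23, T cell sums 3.10 to 6.09 and 7.08 to 7.58 CPM, and neutrophil sums 9.74 to 19.7 and 6.49 to 9.98 CPM, again with 0 of 4 called in each. Macrophage sums overlapped, at 159 to 255 CPM under vehicle and 225 to 236 CPM under FGF23. The part of these cells in the values of Lama2, Lamc3, Itga9, Itgal and Itga4 was not tested.

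**Figure D4:**
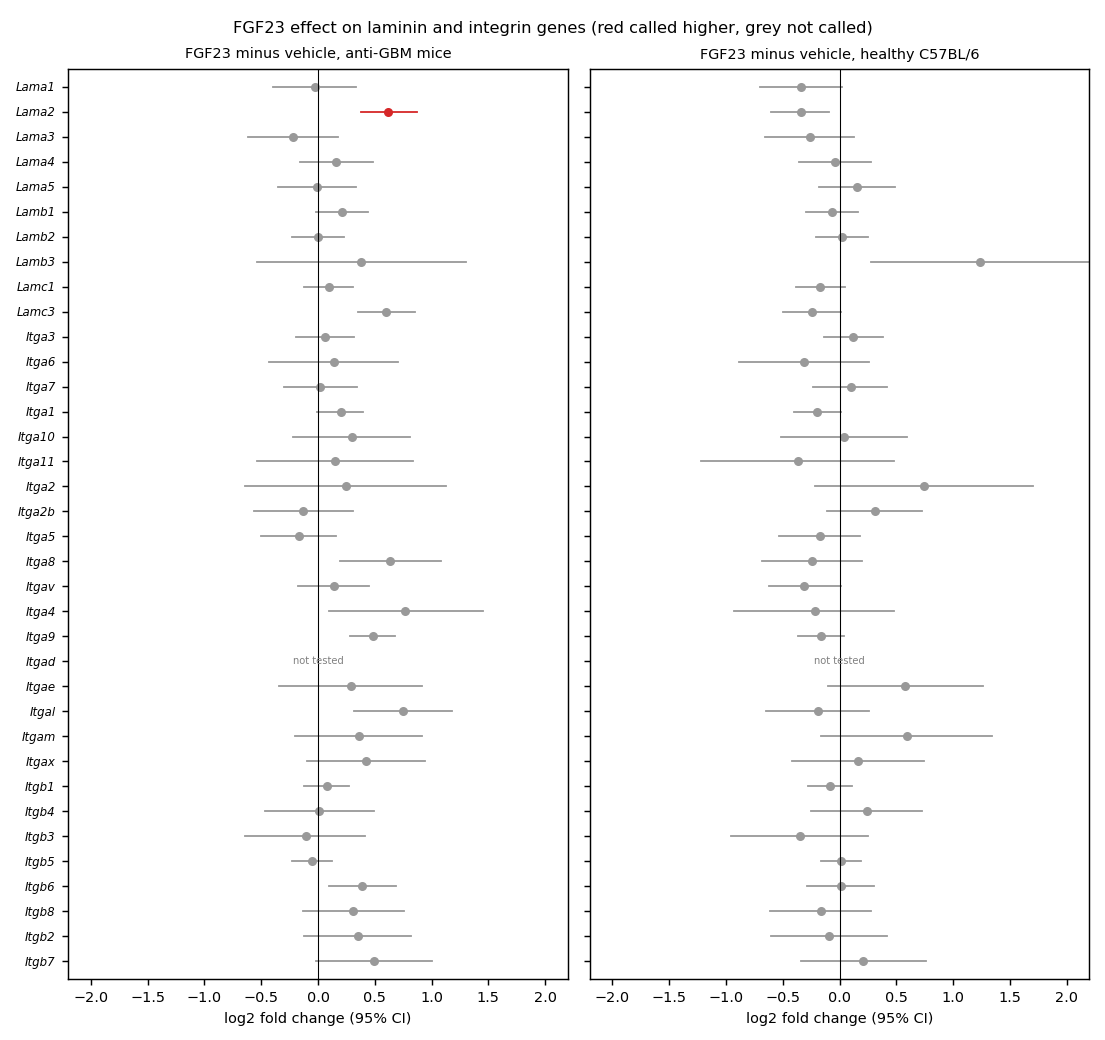
Log2 fold change of FGF23 against vehicle with its 95% interval for 36 genes in anti-GBM mice (left) and healthy C57BL/6 mice (right). Lama2 is the 1 called gene (red, 0.62 in anti-GBM mice), with Itga9 and Lamc3 next to it in size of effect over error, and in healthy mice no gene was called; there the upper bound of Lamb3 runs past the axis.

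In the Adriamycin experiment no gene of the family was called. Adriamycin against healthy mice gave 0 of 35 genes under vehicle (0.331% of all genes) and 0 of 35 under FGF23 (0.699%, with 0.462% higher and 0.237% lower), with median log2 fold changes of 0 and -0.07. FGF23 against vehicle gave 0 of 35 in Adriamycin mice (0.0375% of all genes), 0 of 35 in healthy mice (0% of all genes) and 0 of 35 for the interaction (0%). Unadjusted p fell below 0.05 for 2, 9, 7, 7 and 5 of the 35 genes in these 5 comparisons. Over all 16020 genes tested it did so for 1325, 2030, 912, 1072 and 819. Genes free of overlap numbered 1 and 3 for Adriamycin under vehicle and FGF23 (5.84% and 6.16% of genes of at least 1 CPM), 0 for FGF23 in Adriamycin mice (3.44%) and 3 for FGF23 in healthy mice (3.25%). DESeq2 called 1 gene in these comparisons, Lama4 in Adriamycin against healthy mice under FGF23 (-0.45, adjusted p = 0.0152), which was at 14 ± 1.83 CPM in healthy and 10.3 ± 1.14 CPM in diseased mice (SD, n = 4 each) and had an adjusted p of 0.0828 in edgeR. The smallest p under vehicle was that of Itga2b (-0.44 ± 0.13, adjusted p = 0.265), at 6.97 ± 0.274 and 5.13 ± 0.435 CPM. The glomerular laminin chains that rose in anti-GBM disease did not pass here: Lama5 (134, 150, 137 and 115 CPM against 135, 144, 123 and 115 CPM), Lamb2 (72.2, 89.6, 78.0 and 74.9 against 68.4, 79.3, 73.4 and 73.8 CPM) and Lamc1 (72.3, 73.6, 71.7 and 67.6 against 70.6, 77.7, 69.4 and 69.9 CPM) overlapped between healthy and Adriamycin mice given vehicle. Itga3 overlapped too, at 61.4, 72.3, 64.5 and 62.3 CPM and 62.3, 69.0, 68.5 and 64.5 CPM. Podocyte markers, the cells that Adriamycin injures, summed to 481 to 535 CPM in healthy and 507 to 593 CPM in Adriamycin mice given vehicle, and markers of injured tubules to 78.7 to 168 and 36.7 to 89.6 CPM.

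A single Adriamycin mouse given FGF23 stood apart in Lamb3, Itga2 and Itga3, which were singled out after their values were seen. Its Lamb3 was 31.4 CPM against 1.27 to 1.80 CPM in the other 3 mice of its group, its Itga2 14 CPM against 1.63 to 1.80 CPM, and its Itga3 108 CPM against 59.8 to 67.0 CPM. Its Itgb4 (7.92 CPM) and Itga6 (105 CPM) were the lowest of the group, close to the other 3 mice. With it, FGF23 against vehicle in Adriamycin mice had a log2 fold change of 2.57 for Lamb3 (adjusted p = 0.825) and 1.33 for Itga2 (adjusted p = 0.846), and without it -0.01 and -0.14. Urothelial markers (Upk1a, Upk1b, Upk2, Upk3a, Krt5, Krt15), also chosen afterwards, summed to 4.17 CPM in this mouse, while the series ran from 0.588 to 31.5 CPM. The mouse with 31.5 CPM, a healthy C57BL/6 mouse given FGF23, had 15.4 CPM of Lamb3, the most in its group, whereas a healthy BALB/c mouse given FGF23 with 30 CPM of these markers had 1.81 CPM of Lamb3. Collecting duct markers (Aqp2, Scnn1g, Fxyd4, Hsd11b2) summed to 858 CPM in the Adriamycin mouse, against 455 to 593 CPM elsewhere in its group. In the C57BL/6 mouse with 15.4 CPM of Lamb3 they summed to 705 CPM, against 338 and 342 CPM in its group. By contrast, an anti-GBM mouse given FGF23 with 15.8 CPM of Lamb3 had 481 CPM, the lowest of its group. The part of these cells in Lamb3 was not tested.

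The disease effects of the 2 mouse experiments were compared in 1 fit of the 30 mouse libraries, as the anti-GBM effect minus the Adriamycin effect under vehicle. They differed for 18 of 36 genes (16 higher, 2 lower in anti-GBM), against 31.4% of 16954 genes (15.7% in either direction). Among the genes called, the largest differences upward were those of Itgam (3.23 ± 0.54, adjusted p = 8.43e-05) and Itgb3 (1.60 ± 0.34), leaving aside Itga11, and those downward were Lama1 (-1.11 ± 0.22, adjusted p = 0.000412) and Itgb8 (-0.71 ± 0.21). Itga11 (2.10 ± 0.56) had 2 to 3 counts in each Adriamycin mouse and 4 to 7 in each healthy BALB/c mouse, all given vehicle, was filtered out of the Adriamycin fit and entered the joint fit through the groups where it is higher, so that its difference rests on counts at the floor. The smallest p was that of Itga5 (1.23 ± 0.17, adjusted p = 1.09e-05). The glomerular laminin chains were all among them, with 0.66 ± 0.20 for Lama5, 0.61 ± 0.12 for Lamb2 and 0.31 ± 0.11 for Lamc1, as were Itga3 (0.73 ± 0.19), Itga6 (0.94 ± 0.27) and Itgb4 (0.75 ± 0.29). Itgb1 was not (0.21 ± 0.10, adjusted p = 0.0976). Strain, sex, treatment schedule and disease change together between these experiments and cannot be told apart. Itgb4, Itgb5 and Lamc1 lost the call in some fits without 1 mouse, with 14, 23 and 28 of 30 keeping it.

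**Figure D5:**
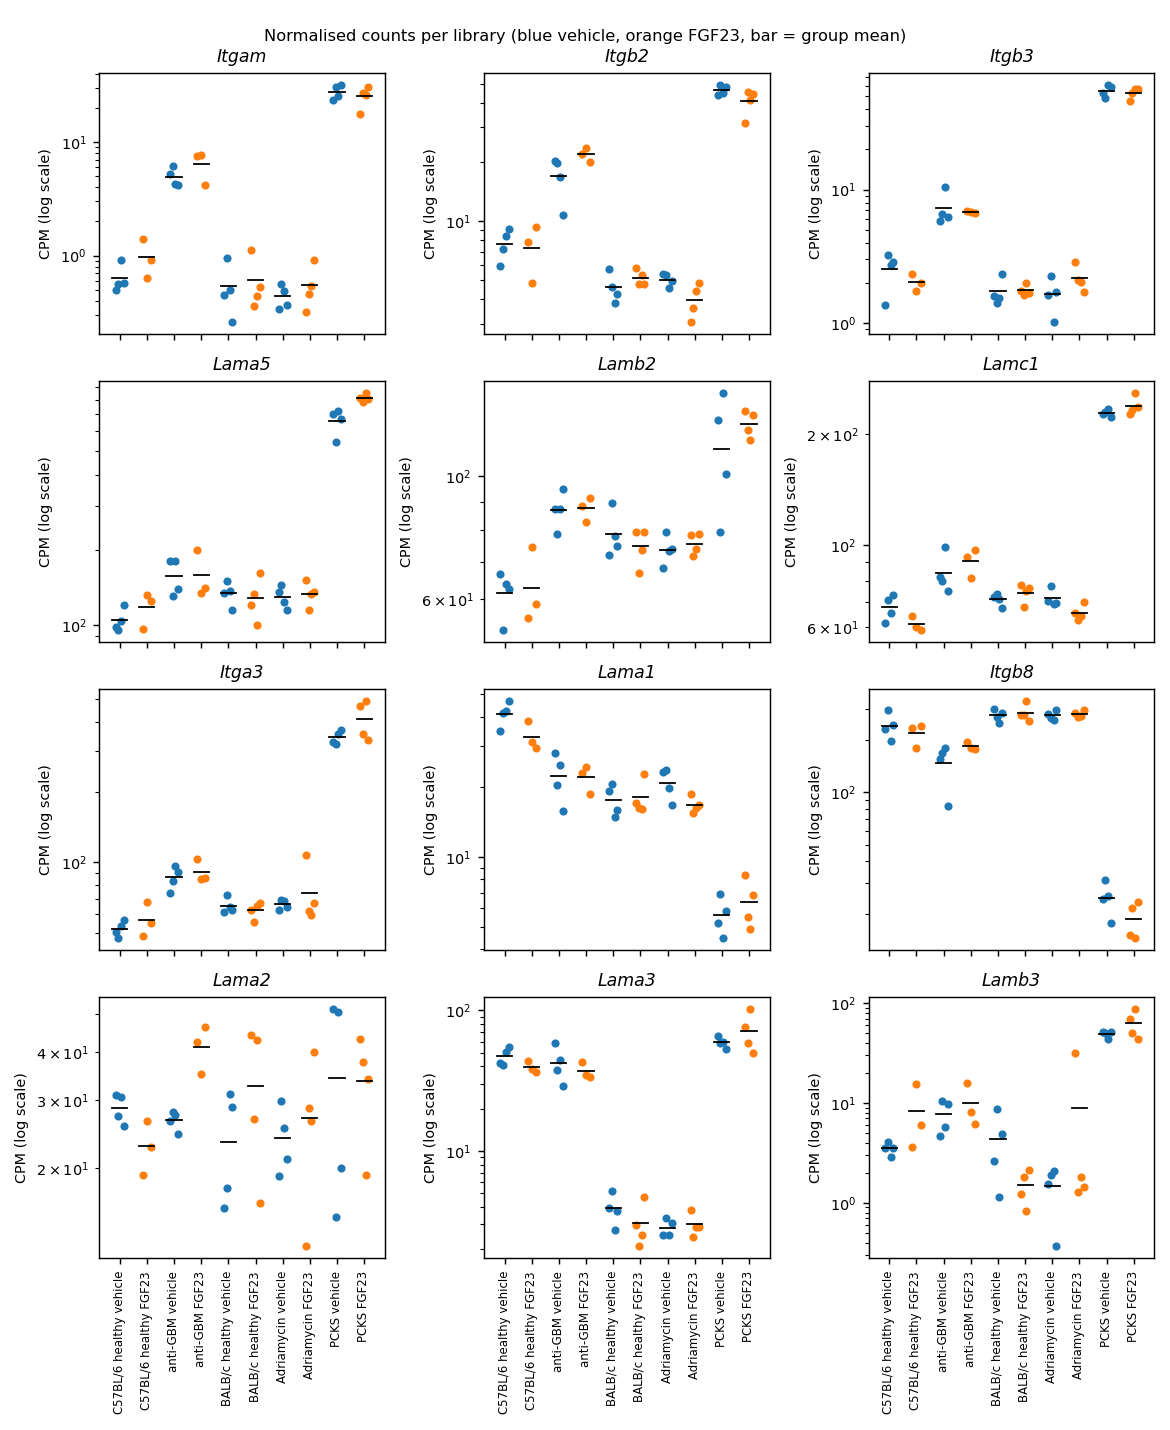
CPM on a log axis of 12 genes in every library (points, blue vehicle, orange FGF23) by group, with the group mean as a bar. Itgam, Itgb2, Itgb3 and Lamc1 are higher and Lama1 lower in anti-GBM than in healthy C57BL/6 mice given vehicle, Lama3 separates C57BL/6 from BALB/c mice, and 1 Adriamycin mouse given FGF23 has 31.4 CPM of Lamb3.

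In the slices FGF23 called no gene of the family. Of 35 genes, 0 passed, as did 0% of the 15090 genes tested and none under DESeq2 for this family. In edgeR an unadjusted p below 0.05 was found for 4 of the 35 and for 738 of the 15090 genes. Lama5 had the smallest p, at 704, 541, 721 and 671 CPM under vehicle and 818, 785, 853 and 807 CPM under FGF23, free of overlap (0.30 ± 0.11, adjusted p = 0.849). Itgax was the other gene without overlap, at 8.67, 9.08, 9.49 and 7.96 CPM and then 6.74, 7.80, 4.09 and 6.56 CPM (-0.49 ± 0.18, adjusted p = 0.849), while 2.89% of genes of at least 1 CPM were free of overlap. Lama2 was uneven within the vehicle group, at 51.6, 14.9, 50.7 and 20 CPM. It was at 43.3, 37.7, 19.2 and 34 CPM under FGF23.

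As levels, the slices differed from all 30 mouse kidneys in most of the family, a description in which strain, disease and culture cannot be told apart. In 17 genes every slice was above every kidney and in 5 every slice was below, where 21.3% and 26% of genes of at least 1 CPM did so. The mean of the slices over that of the kidneys was 55.9-fold for Itga2, 26.7-fold for Itga11, 17.1-fold for Itgb3, 15-fold for Itgam and 10.2-fold for Lamb3. These are receptors for collagen, vitronectin and complement, and a chain of the epithelial laminin. The lowest count in a kidney library was 2 for Itga11, 6 for Itgam and 6 for Lamb3, so that these folds rest partly on low counts. The 5 genes below were Itga1, Itga8, Itgae, Lama1 and Itgb8, with Itgb8 11.2-fold lower. Marker levels moved as well: injured tubule markers summed to 987 to 1760 CPM and proximal tubule markers to 191 to 491 CPM in the slices, and the latter to 6270 to 14500 CPM in the mouse kidneys. Platelet markers, which bear on Itgb3, summed to 30.7 to 98.7 CPM in the slices and to 0.158 to 3.57 CPM in the kidneys, with Gp1bb at 0 in all groups but the healthy C57BL/6 mice given vehicle. Itga2b, the partner of β3 on platelets, went the other way, with means of 3.24 CPM in the slices and 6.34 CPM in the kidneys. Macrophage sums were 247 to 359 CPM in the slices and 80.4 to 255 CPM in the kidneys, and fibroblast sums 515 to 910 and 55.3 to 762 CPM. The part of these cells in the levels of the family was not tested.

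Between the healthy kidneys of the 2 mouse experiments, Lama3 stood out, a gene named here after its values were seen. It was at 36.5 to 55.2 CPM in the 7 healthy C57BL/6 males and at 2.09 to 5.15 CPM in the 8 healthy BALB/c females, a 12.6-fold difference in the means, and it stayed at 2.45 to 3.80 CPM in the Adriamycin mice and 28.9 to 58.2 CPM in the anti-GBM mice. In the DBA/2J slices it averaged 65.4 CPM and was at least 49.9 CPM. Itgb6, Lama1, Itgax and Itgal were also higher in all healthy C57BL/6 mice, by 1.84-, 2.12-, 2.25- and 2.07-fold, and Itga5 was 1.28-fold higher in healthy BALB/c mice. No other gene of the family was free of overlap, while 15.8% of genes of at least 1 CPM were higher and 11.3% lower in C57BL/6 in that sense. Strain, sex and experiment are confounded in this comparison, which was not tested.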

How the data were processed

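The data are RNA-Seq counts of 30 mouse kidneys and 8 slice cultures. The authors sequenced stranded mRNA libraries, aligned reads to GRCm38 with STAR 2.7.9a, assigned them to Ensembl genes with featureCounts 1.5.1, and deposited raw read counts of 55487 genes without normalization or filtering. The strand setting of the counting is not given in the sources used here. Whether a mouse's column belongs to a group was read from the labels and the headers of the supplementary tables, and columns not used numbered 0. A table of gene names gave symbols for 55141 genes and left 346 unnamed, and exon lengths came from a GRCm38 annotation. Replicate libraries differed by more than counting noise (smallest chi-square per degree of freedom 2.12).

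Counts were filtered with filterByExpr (minimum count 10), given TMM factors, and fitted once per experiment over all its groups. edgeR's quasi-likelihood test gave p-values, adjusted by Benjamini-Hochberg over all genes tested (15859, 16020 and 15090, and 16954 in the joint fit). SE is the log2 fold change over the root of F. The study's methods name DESeq2, run here as an alternative. The code was tested on simulated data. R 4.3.3, edgeR 4.0.16, limma 3.58.1 and DESeq2 1.42.0 were used, ratios had a prior count of 2, and alternatives are given under the processing section. Intervals are 95% and cover the spread between libraries. The members, lists and tests were chosen with earlier results of these data known. Named are members called in any comparison, the smallest p in some of the comparisons where none was, and Lama5, Lamb2, Lamc1, Itga3, Itgb1, Itga1 and Lama2. Values by library are given for these 7 and for 12 others of small p. Results that need 1 member or 1 podocyte marker are not reported here, and counts over the family include that member.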

Additional observations from a re-analysis of the deposited data

Results flagged for a closer look

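In groups of 4 libraries, 13 of the 279 sets of member values held a library far from the others, where chance gives about 1 in 20. The Adriamycin mouse given FGF23 described in the report had 4 of them: Lamb3 at 31.4 CPM (others 1.27 to 1.80), Itga2 at 14 CPM (1.63 to 1.80), Itga3 at 108 CPM (59.8 to 67.0) and Itga7 at 9.50 CPM (11.5 to 11.6). Another mouse of that group had Itgax at 3.66 CPM (1.61 to 1.90). Among Adriamycin mice given vehicle, 1 had Itgae at 0.853 CPM (1.86 to 1.93) and 1 had Lamc1 at 77.7 CPM (69.4 to 70.6). A healthy BALB/c mouse given FGF23 had Lama1 at 22.8 CPM (16.1 to 17). An anti-GBM mouse given vehicle, the one on which the calls of Itga6 and Itga11 depended, had Itgb3 at 10.5 CPM (5.81 to 6.54). In the slices, single cultures had Itga2b at 3.64 CPM (2.73 to 2.84), Itga5 at 89.3 CPM (105 to 107), Lama4 at 61.8 CPM (46.5 to 48.2) and Lamb3 at 43.5 CPM (50.6 to 51.8).

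The disease effect under vehicle differed between the anti-GBM and Adriamycin experiments, by the test of the difference itself, for 18 genes, 17 of which are given. The differences on the log2 scale were 3.23 for Itgam, 2.10 for Itga11 (which had 2 to 3 counts in each Adriamycin mouse given vehicle and was not tested in that experiment), 1.60 for Itgb3, 1.37 for Itgae, 1.23 for Itga5, 1.21 for Itgax, 1.15 for Itgb7, 1.05 for Itgb2, 0.94 for Itga6, 0.75 for Itgb4, 0.73 for Itga3, 0.66 for Lama5, 0.61 for Lamb2, 0.31 for Lamc1, 0.25 for Itgb5, -0.71 for Itgb8 and -1.11 for Lama1.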

How the results depend on the processing

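With an added minimum log2 fold change of 1, the genes called fell from 24 to 8 in anti-GBM against healthy mice under vehicle, from 23 to 9 under FGF23, from 18 to 9 in the difference of disease effects, and from 1 to 0 for FGF23 in anti-GBM mice, which follows from the stricter rule. That last count was also 0 with adjustment over 3 comparisons combined and with only the groups compared, and was 2 with RLE normalization, 3 without a count filter, 3 with at least 10 counts in every library and 4 with DESeq2, the cause of which was not tested. The interaction of FGF23 with anti-GBM disease was called for 2 genes without a count filter and 3 with DESeq2, and Adriamycin against healthy mice under FGF23 for 1 with DESeq2. Other alternatives kept each count within 1.5 times. Leaving out 1 library gave 20 to 26 genes in anti-GBM against healthy mice under vehicle, 19 to 24 under FGF23, 0 to 1 for FGF23 in anti-GBM mice and 16 to 20 for the difference of disease effects, and 0 in the other comparisons. Of the genes called, 17 of 24, 18 of 23, 0 of 1 and 15 of 18 kept the call in all alternatives in which they were tested, other than the fold minimum. No called gene changed sign. Scaling by TMM within each experiment moved 84 of 370 group means by more than 1 SD, and the other prior count moved 0 of 100 ratios. For the slices, a fit with the replicate block gave 0 genes, as without it. Same-numbered slices correlated at 0.1, 0.0926, -0.118 and 0.113, and slices of different numbers at -0.172 to 0.133. The numbers were not taken to pair the slices, though these values cannot exclude that same-numbered slices came from 1 mouse. No paired analysis was possible for the mice because their columns carry no replicate number of the labels. Itgad, at 2 counts or fewer, and other genes of low counts are limited by depth.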
